A study of Mus musculus with 12 samples.

Results

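The genes described here are *Lcn2* and 9 genes of iron handling, 10 of the 56923 genes in the count table, taken by name after the Ensembl identifiers had been matched to symbols. They are *Lcn2*, *Slc22a17*, *Ltf*, *Tfrc*, *Slc11a2*, *Slc40a1*, *Hamp*, *Hamp2*, *Fth1* and *Ftl1*, and all 10 had enough counts to enter the test of 18529 genes. *Hamp2* was picked because its values after imiquimod (IMQ) had already been seen, so its levels and fitted changes are a description without a test, and it is left out of every count of called genes. RNA was sequenced from back skin. The 12 mice were females, 8 to 10 weeks old, and formed 4 groups with 3 animals each: WT littermates with vehicle cream (WT control) or with IMQ cream (WT IMQ), and mice labelled *Lcn2*-/- with vehicle cream or with IMQ cream. Every mouse had its back shaved and received cream daily for 6 days, and the IMQ cream held 5% of the drug. IMQ is a Toll-like receptor agonist that brings out psoriasis-like lesions in mouse skin. The *Lcn2*-/- line is on a C57BL/6 background and came from a commercial breeder.

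Some of the labels go against each other or against the data. The genotype field calls the mice knockdown while the titles call them knockout, and the treatment field of the control mice reads none while the methods give vehicle cream. An extraction text speaks of another tissue, the retina, but 6 photoreceptor genes summed to only 0.471 to 2.91 CPM (counts scaled to one common library size, with TMM factors) per library and *Crx* had no count at all, whereas 9 keratinocyte genes summed to between 5180 and 37909 CPM. Library totals ran from 16448226 to 28592110 counts, and 3 counts, the level below which a gene was read as not detected, are worth 0.0985 to 0.202 CPM. P-values measure the spread between these mice.

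LCN2 is a small secreted protein of neutrophil granules and stressed epithelium that binds bacterial siderophores, the molecules with which bacteria capture iron, and so withholds iron from them. Iron enters cells through the transferrin receptor TFRC and the transporter SLC11A2, is stored in ferritin shells made of FTH1 and FTL1 chains, and leaves cells through ferroportin, the product of *Slc40a1*. Hepcidin, the peptide hormone encoded by *Hamp*, is made chiefly in the liver and causes ferroportin to be degraded. Mice carry a closely related copy, *Hamp2*. Iron itself acts on several of these messages after transcription, through iron responsive elements (IREs), short hairpins that are bound by the iron regulatory proteins. In a 5′ UTR the bound hairpin blocks translation, and in the 3′ UTR of *Tfrc* it protects the message from decay, so that a change of the message count is only a piece of the control of these proteins.

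The IREs of 4 of the genes are shown because they mark which messages are under this control. They were read from the GENCODE M21 transcripts (GRCm38) as an unpaired C, 5 bases, the loop CAGTGN and another 5 bases that pair with those before the loop. Capitals mark the 6 bases of the loop.
*Fth1* 5′ UTR, exon 1, chr19:9982732-9982760, plus strand: ttcctgcttcaaCAGTGCttgaacggaac
*Ftl1* 5′ UTR, exon 1, chr7:45459779-45459807, minus strand: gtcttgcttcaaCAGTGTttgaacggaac
*Slc40a1* 5′ UTR, exon 1, chr1:45925465-45925493, minus strand: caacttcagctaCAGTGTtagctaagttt
*Tfrc* 3′ UTR, exon 19, first of 4 matches, chr16:32631219-32631247, plus strand: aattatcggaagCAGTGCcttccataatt
The hairpins of both ferritin messages share most of their letters, and the *Tfrc* message carried 4 matches within its last exon. Among tested genes, the pattern matched 20 of 15091 with an annotated 5′ UTR (0.133%) and 87 of 15142 with an annotated 3′ UTR (0.575%). No match was found in *Slc11a2*, which says only that this pattern is not in its annotated UTRs.

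The *Hamp* and *Hamp2* promoters are shown because these genes lie side by side on chromosome 7 and their counts moved together. The stretches are the 120 bases before the RefSeq start sites (GRCm38.p6), both on the minus strand. Capitals mark matches to the STAT motif TTCNNNGAA and, in *Hamp*, to the BMP response element GGCGCC, the letters through which STAT3 and SMAD proteins are known to act on the hepcidin promoter.
*Hamp*, chr7:30944030-30944149: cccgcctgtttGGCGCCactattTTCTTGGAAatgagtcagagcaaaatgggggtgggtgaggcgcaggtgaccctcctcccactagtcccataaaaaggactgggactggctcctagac
*Hamp2*, chr7:30924182-30924301: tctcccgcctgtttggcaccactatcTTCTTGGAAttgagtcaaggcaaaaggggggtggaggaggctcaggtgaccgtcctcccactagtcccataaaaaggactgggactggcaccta
The STAT letters began 97 bases before the start of *Hamp* and 94 bases before that of *Hamp2*, and GGCGCC began 109 bases before the start of *Hamp*. At the aligned place *Hamp2* differs by G4A, counted from the 5′ end of GGCGCC, and has no match. Both strands were searched, and neither capitalised match overlaps the other. Of 32851 RefSeq promoters with 250 bases before the start, 7.02% held the STAT letters and 9.59% held GGCGCC. A longer *Hamp2* isoform of GENCODE starts further upstream, so that this stretch also lies within an intron of it.

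*Lcn2* (chromosome 2, 32384633 to 32388252, GRCm38) is the gene that the *Lcn2*-/- mice are labelled to lack, yet it was counted in all 12 libraries. The WT control libraries held 6.28, 8.64 and 4.57 CPM and the control libraries labelled *Lcn2*-/- held 10.5, 9.22 and 15.9 CPM. All 3 control libraries labelled *Lcn2*-/- were above all 3 WT control libraries, although the fitted difference did not pass (log2 fold change 0.87, SE 0.41, adjusted p = 0.794). The table has 1 value per gene, so reads from exons that a targeted allele may keep cannot be told apart from reads of a whole message, and the check says nothing about the protein. The genotype is therefore given as a label throughout.

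After IMQ, *Lcn2* stood at 61.2, 183 and 76.1 CPM in the WT mice and at 34.3, 29.9 and 49.8 CPM in the mice labelled *Lcn2*-/-. Every IMQ library was above every control library. The rise was 16.3-fold in WT mice (log2 4.03, SE 0.44, adjusted p = 8.1e-05) and 3.19-fold in mice labelled *Lcn2*-/- (log2 1.67, SE 0.40, adjusted p = 0.0121). The latter call was lost without IMQ mouse 3 labelled *Lcn2*-/- (adjusted p = 0.0536) and without the filter on low counts (adjusted p = 0.0584). The difference between these rises was -2.36 on the log2 scale (SE 0.57, adjusted p = 0.0552). It passed without WT IMQ mouse 2, the library with the most *Lcn2* (-1.72, adjusted p = 0.0312). Between the IMQ groups, where no library overlapped, the call also turned on the method, with an adjusted p of 0.0525 in the main edgeR fit and 0.00416 by DESeq2. It passed in 3 of 6 alternative settings, DESeq2 among them, and in 0 of 6 fits with a mouse left out (adjusted p 0.0821 to 0.199).

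WT IMQ mouse 2 stood out for *Lcn2* beyond its neutrophil genes. The 11 neutrophil genes other than *S100a8* and *S100a9*, summed, reached 146, 185 and 182 CPM in the WT IMQ libraries 1 to 3 and between 198 and 504 CPM in the IMQ libraries labelled *Lcn2*-/-. For each count on these genes there were 0.420, 0.989 and 0.419 *Lcn2* counts in the WT IMQ libraries, and 0.136, 0.151 and 0.0987 in the IMQ libraries labelled *Lcn2*-/-. The latter ratios were also below those of the control libraries, which ran from 0.221 to 0.752. Keratinocyte genes summed to 28564 to 37909 CPM in WT IMQ and to 16314 to 27062 CPM in IMQ labelled *Lcn2*-/-. Within WT IMQ the lowest of these sums was that of mouse 2, which had the most *Lcn2*. The part of keratinocytes in the *Lcn2* values was not tested. In whole skin, fewer or more cells of a type and a change of RNA per cell cannot be told apart.

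*Slc22a17* encodes a cell surface receptor for LCN2. Its level was 13.5, 10.1 and 12.02 CPM in WT control, 13.5, 6.59 and 16.8 CPM in WT IMQ, 10.1, 11.2 and 11.7 CPM in control labelled *Lcn2*-/-, and 7.27, 8.01 and 8.34 CPM in IMQ labelled *Lcn2*-/-. The WT IMQ libraries spanned all others, with a log2 fold change of 0.06 (95% interval -0.54 to 0.65). The mice labelled *Lcn2*-/- did not overlap, but the change after IMQ did not pass (-0.48, SE 0.27, adjusted p = 0.217). Without WT IMQ mouse 2, the library with the least *Slc22a17*, the level of IMQ mice labelled *Lcn2*-/- was lower than that of WT IMQ mice (-0.94, adjusted p = 0.0107), while with it the difference was -0.65 (adjusted p = 0.158). Other receptors described for LCN2 had too few counts to be tested. *Mc4r* had at most 2 counts in a library and was not detected in skin at this depth. *Lrp2*, which encodes megalin, had 9, 0 and 5 counts in WT control, 0, 14 and 6 in control labelled *Lcn2*-/-, none in WT IMQ, and 1, 0 and 0 in IMQ labelled *Lcn2*-/-.

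*Ltf* encodes lactoferrin, an iron-binding protein of neutrophil granules and of secretions. It had 0, 6 and 13 counts in WT control, 36, 11 and 50 in WT IMQ, 3, 1 and 17 in control labelled *Lcn2*-/-, and 51, 45 and 130 in IMQ labelled *Lcn2*-/-. The counts are low, but in CPM the IMQ libraries did not overlap the controls in either genotype label. *Ltf* entered the test through its IMQ libraries, where it is high, which limits what its p-values can show. The rise passed in mice labelled *Lcn2*-/- (log2 3.88, SE 1.00, adjusted p = 0.0165) and not in WT mice (2.52, SE 1.00, adjusted p = 0.0810), where DESeq2 called it (adjusted p = 0.0320). The call in mice labelled *Lcn2*-/- was lost without control mouse 1, control mouse 2 or IMQ mouse 3 of that label, with adjusted p of 0.0508, 0.0538 and 0.0689. The difference between the responses was 1.36 (SE 1.41, adjusted p = 0.583). Unlike *Lcn2*, *Ltf* kept to between 0.0124 and 0.0155 counts per neutrophil count in 5 of 6 IMQ libraries, and the sixth, WT IMQ mouse 2, had 0.00400.

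**Figure D1:**
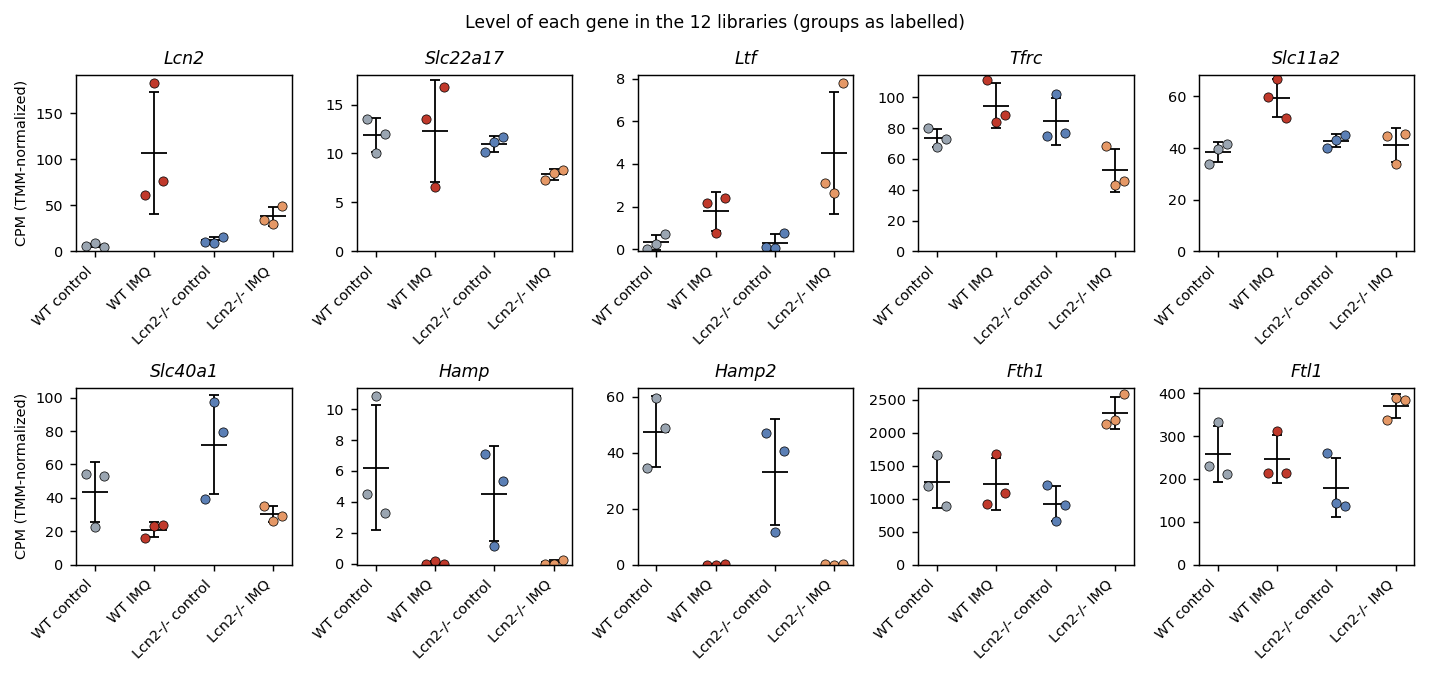
Level of the 10 genes in each library, in CPM on linear axes that differ between panels. Points are mice, and bars give the mean ± SD of the 3 mice of a group. *Hamp* and *Hamp2* are at or near 0 in all 6 IMQ libraries, and *Fth1* is highest in the 3 IMQ libraries labelled *Lcn2*-/-, between 2129 and 2581 CPM.

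The hepcidin genes went from clearly counted to almost none. *Hamp* (chromosome 7, 30942368 to 30944032) had 97, 252 and 62 counts in WT control and 217, 21 and 120 in control labelled *Lcn2*-/-. After IMQ it had 0, 3 and 0 counts in WT mice and 0, 0 and 4 in mice labelled *Lcn2*-/-. All 6 IMQ libraries were below all 6 control libraries. *Hamp* fell in WT mice (log2 -6.58, SE 1.17, adjusted p = 0.00193) and in mice labelled *Lcn2*-/- (log2 -5.73, SE 1.13, adjusted p = 0.00433). *Hamp* entered the test only through its control libraries, where it is high. It is also a close relative of *Hamp2*, which was picked for the same fall, so these p-values are no separate support for a fall. Taken from the summed counts per total, WT control held 125 times as much as WT IMQ (95% exact interval 42.5 to 610), and control labelled *Lcn2*-/- held 71.9 times as much as its IMQ group (27.8 to 265), intervals that cover counting error only.

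*Hamp2* (chromosome 7, 30922372 to 30924681) was the larger of the pair. It had 743, 1384 and 916 counts in WT control, 1432, 219 and 907 in control labelled *Lcn2*-/-, 0, 0 and 4 in WT IMQ, and 2, 0 and 1 in IMQ labelled *Lcn2*-/-. The fitted log2 fold changes, which are what it was picked for, were -9.17 and -8.97. In the 6 control libraries *Hamp2* took 84.6% to 93.7% of the reads on both genes, the lowest share in WT control mouse 2 (95% Wilson interval 82.8 to 86.3) and the highest in WT control mouse 3 (91.96 to 95.02). These shares contain the control counts for which *Hamp2* was picked, and are a description as well.

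The hepcidin copies are much alike. Their promoters were the same at 227 of 253 aligned places (89.7%) and their longest transcripts at 388 of 437 (88.8%). Of all windows of 50 bases in the *Hamp2* transcript, 15.5% occur unchanged in that of *Hamp*, and of 288 windows of 150 bases none does. How the authors' counting treated reads that match both is not given in the sources used here, and the split between the copies is uncertain to that extent. The antisense gene *Gm44662*, which overlaps both, had 0 counts.

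Control mouse 2 labelled *Lcn2*-/- was low for both copies, at 1.12 CPM of *Hamp* and 11.7 CPM of *Hamp2*, against 3.30 to 10.8 and 34.3 to 59.5 CPM in the other 5 control libraries. The liver is the main site of hepcidin, and 7 liver genes, *Alb* among them, summed to 6.70 to 12.04 CPM in WT control, 2.13 to 5.04 in WT IMQ, 10.9 to 23.6 in control labelled *Lcn2*-/- and 8.28 to 13.4 in IMQ labelled *Lcn2*-/-. None of the 7 was at 0 in every library, and 3 had at most 10 counts in any. Their sums were lower after IMQ without overlap in WT mice, and overlapped between IMQ and control in mice labelled *Lcn2*-/-, where *Hamp* did not. Of 9 pancreas genes, *Cela2a*, *Ctrb1*, *Ins1* and *Ins2* were at 0 in all libraries, and the sum of the list, mostly *Cela1*, was 2.18 to 5.58 CPM in controls and 5.15 to 9.95 CPM after IMQ. The 6 muscle genes summed to 12191 to 12836 CPM in WT control, 5369 to 6551 in WT IMQ, 6039 to 11149 in control labelled *Lcn2*-/- and 5356 to 8274 in IMQ labelled *Lcn2*-/-, and 4 of 6 fell in WT mice and 2 of 6 in mice labelled *Lcn2*-/-. The lowest of the control sums was that of control mouse 2 labelled *Lcn2*-/-, the library low for both hepcidin copies. The part of these tissues in the *Hamp* values was not tested.

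*Slc40a1* encodes ferroportin, the exporter that hepcidin removes. It stood at 54.3, 22.6 and 53.0 CPM in WT control, 16.1, 23.3 and 23.8 in WT IMQ, 39.3, 97.2 and 79.2 in control labelled *Lcn2*-/-, and 35.3, 26.1 and 29.3 in IMQ labelled *Lcn2*-/-. In WT mice the groups overlapped through control mouse 2, and the change did not pass (log2 -1.04, SE 0.36, adjusted p = 0.0516). Without that mouse it did (-1.35, adjusted p = 0.0109), and DESeq2 also called it (adjusted p = 0.0190). *Slc40a1* fell in mice labelled *Lcn2*-/- (log2 -1.25, SE 0.36, adjusted p = 0.0268), a call that passed in 1 of 6 fits with a mouse left out, the one without control mouse 1, with adjusted p of 0.0529 to 0.0958 in the other 5. It was also lost without the filter on low counts (adjusted p = 0.0915). The difference between the responses was -0.21 for *Slc40a1* (SE 0.51, adjusted p = 0.834).

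Among the genes of iron entry, *Tfrc*, the receptor for transferrin-bound iron, was the only one of the 10 called between the IMQ groups, where 4.78% of all tested genes were called. It stood at 79.9, 67.7 and 73.1 CPM in WT control, 111, 84.2 and 88.5 in WT IMQ, 74.8, 102 and 76.5 in control labelled *Lcn2*-/-, and 68.6, 43.1 and 45.8 in IMQ labelled *Lcn2*-/-. IMQ libraries labelled *Lcn2*-/- were below all other libraries apart from WT control mouse 2, which had 67.7 CPM. *Tfrc* fell after IMQ in mice labelled *Lcn2*-/- (log2 -0.68, SE 0.19, adjusted p = 0.0214), and in WT mice its log2 fold change of 0.36 did not pass (SE 0.19, adjusted p = 0.171). Set against WT IMQ mice, IMQ mice labelled *Lcn2*-/- had less *Tfrc* (log2 -0.85, SE 0.19, adjusted p = 0.0353). Keratinocyte genes were lower in the same mice, with sums of 28564 to 37909 CPM in WT IMQ and 16314 to 27062 CPM in IMQ labelled *Lcn2*-/- and 3 of 9 genes called lower, and their part in the *Tfrc* values was not tested.

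These calls for *Tfrc* were close to the threshold. Among fits with a mouse of the IMQ groups left out, the difference between these groups passed only without WT IMQ mouse 2 (adjusted p = 0.0190), and the other 5 gave an adjusted p of 0.0564 to 0.178. The fall in mice labelled *Lcn2*-/- was lost without control mouse 2, IMQ mouse 2 or IMQ mouse 3 of that label, with adjusted p of 0.0828, 0.0849 and 0.0868. The difference between the responses was -1.05 (SE 0.27, adjusted p = 0.0619).

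*Slc11a2*, which encodes the ferrous iron transporter DMT1, rose in WT mice. It was at 34.01, 39.8 and 41.6 CPM in WT control and at 59.8, 66.6 and 51.7 CPM in WT IMQ, 0.63 higher on the log2 scale (SE 0.14, adjusted p = 0.00706), a call that passed with each mouse left out. With the *Lcn2*-/- label it was at 40.1, 43.3 and 45.2 CPM in control and at 44.5, 33.7 and 45.6 CPM after IMQ, and these groups overlapped (-0.05, 95% interval -0.36 to 0.26). The IMQ groups did not overlap, yet their difference did not pass (-0.52, SE 0.14, adjusted p = 0.0545), nor did that of the responses (-0.68, SE 0.20, adjusted p = 0.0855). The overlapping antisense gene *Gm5475* had 44 counts over all libraries against 10601 on *Slc11a2*.

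The ferritin chains store iron, FTH1 as the heavy chain that oxidises it and FTL1 as the light chain. *Fth1* was at 1197, 1655 and 892 CPM in WT control and at 914, 1670 and 1080 CPM in WT IMQ. *Ftl1* was at 230, 333 and 211 CPM in WT control and at 215, 311 and 215 CPM in WT IMQ. The WT groups lay on top of each other, with log2 fold changes of -0.03 for *Fth1* (95% interval -0.65 to 0.59) and -0.06 for *Ftl1* (-0.63 to 0.50).

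Both chains rose in mice labelled *Lcn2*-/-. *Fth1* went from 1203, 668 and 898 CPM to 2129, 2194 and 2581 CPM, 1.32 higher on the log2 scale (SE 0.29, adjusted p = 0.00696), a call that passed with each mouse left out. *Ftl1* went from 260, 144 and 136 CPM to 338, 389 and 383 CPM, 1.04 higher on the log2 scale (SE 0.26, adjusted p = 0.0144). The call for *Ftl1* was lost without control mouse 2 or control mouse 3 of that label (adjusted p = 0.0547 and 0.0600). All 3 IMQ libraries labelled *Lcn2*-/- were above the other 9 for each chain.

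Between the IMQ groups *Fth1* differed by 0.91 (SE 0.28, adjusted p = 0.0778) and *Ftl1* by 0.58 (SE 0.26, adjusted p = 0.175). The differences between the responses were 1.35 (SE 0.40, adjusted p = 0.0873) and 1.104 (SE 0.37, adjusted p = 0.109). For *Fth1* the former passed without WT IMQ mouse 2 (adjusted p = 0.0225), and the latter passed without that mouse or without WT control mouse 3 (adjusted p = 0.0265 and 0.0434). For *Ftl1* the difference between the responses passed without control mouse 1 labelled *Lcn2*-/- (adjusted p = 0.0299). There were 4.22 to 6.73 *Fth1* counts for each *Ftl1* count over all libraries. Ferritin genes have many processed copies, and the named light chain copy *Ftl1-ps1* had 987 counts against 61527 on *Ftl1*.

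Genes of macrophages, cells that take up and store iron, also rose with the ferritins. All 9 macrophage genes, *Adgre1*, *Cd68* and *Csf1r* among them, rose after IMQ in mice labelled *Lcn2*-/- and 1 of 9 rose in WT mice. Their summed level ran from 1568 to 5785 CPM in WT control, 3587 to 5895 in WT IMQ, 1345 to 2707 in control labelled *Lcn2*-/- and 5570 to 7874 in IMQ labelled *Lcn2*-/-. For the difference between the responses edgeR called 0 of these 9 genes. The 6 fibroblast genes summed to 19630 to 20462 CPM in IMQ labelled *Lcn2*-/- and to 9853 to 16348 CPM in the other 9 libraries, and 3 of 6 were called for the difference between the responses. The part of these cells in the ferritin and *Slc40a1* values was not tested.

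**Figure D2:**
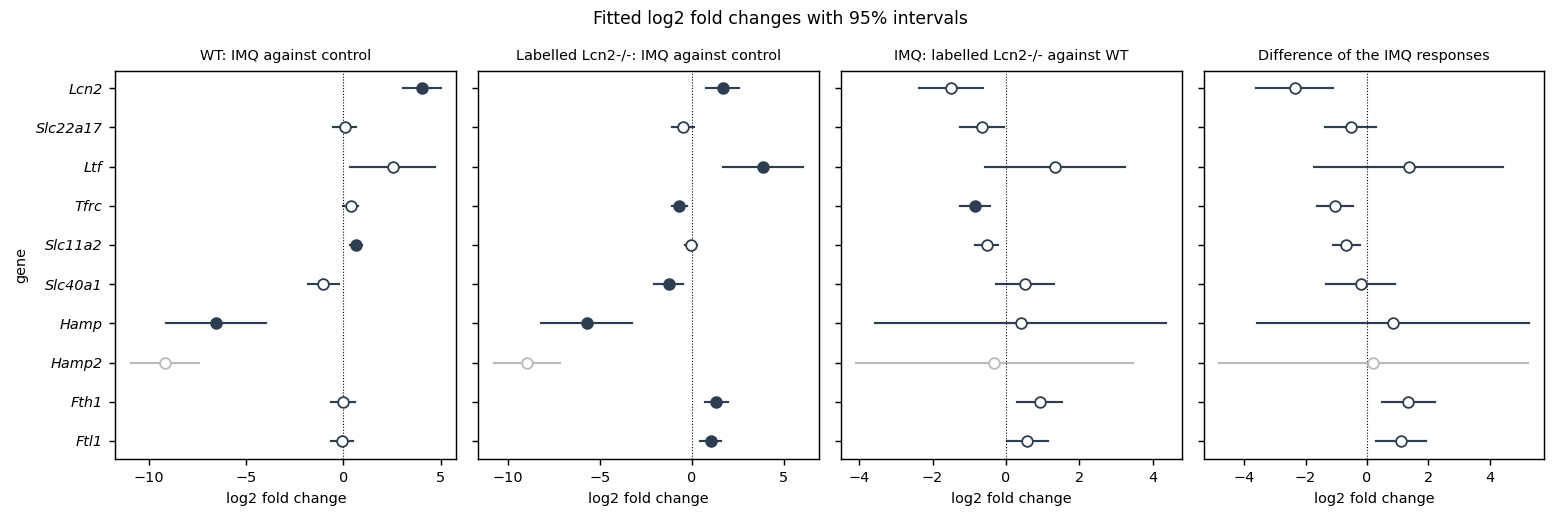
Log2 fold changes of the 10 genes in 4 comparisons, with 95% intervals from the fit over 12 libraries. Filled points have an adjusted p under 0.05, open points do not, and *Hamp2* is drawn in grey without a test. In WT mice the ferritins sit at 0, while in mice labelled *Lcn2*-/- they lie at 1.04 and 1.32.

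Counted together, without *Hamp2*, 3 of 9 genes were called after IMQ in WT mice (*Lcn2* and *Slc11a2* higher, *Hamp* lower), where 28.5% of all tested genes were called. With the *Lcn2*-/- label, 7 of 9 were called (*Lcn2*, *Ltf*, *Fth1* and *Ftl1* higher, *Hamp*, *Slc40a1* and *Tfrc* lower), where 25.3% of all tested genes were called. Both counts include *Hamp* and the latter includes *Ltf*, with the limits given above. Groups did not overlap for 5 of 9 genes in WT mice and 8 of 9 in mice labelled *Lcn2*-/-, against 40.6% and 45.9% of all tested genes. They did not overlap for 7 of 9 between the IMQ groups, against 33.3%, and for 1 of 9, *Lcn2*, between the control groups, against 9.37%. Between the control groups edgeR called 0 of 9, with 0 also at an unadjusted p under 0.05 (6.60% of all tested genes) and 0 by DESeq2, and 0.0108% of all tested genes were called. For the difference between the responses edgeR called 0 of 9, where 2.15% of all tested genes were called, although 5 of 9 had an unadjusted p under 0.05, against 24.1% of all tested genes. DESeq2 called those 5, *Lcn2*, *Tfrc*, *Slc11a2*, *Fth1* and *Ftl1*, with adjusted p from 0.00135 to 0.0418.

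Levels of different genes can be set beside each other only per length, here as CPM per kilobase of merged exons. In WT control the order of mean levels was *Fth1* at 360, *Ftl1* at 193, *Hamp2* at 81.5, *Hamp* at 15.1, *Tfrc* at 11.9, *Slc11a2* at 6.05, *Slc40a1* at 4.81, *Slc22a17* at 2.63, *Lcn2* at 2.48 and *Ltf* at 0.0917. The ranges over libraries of *Hamp* and *Tfrc*, of *Slc11a2* and *Slc40a1*, of *Slc40a1* and *Slc22a17* and of *Slc22a17* and *Lcn2* overlapped. The order of these neighbours is that of their means only, and they were not compared within each library. In control labelled *Lcn2*-/-, *Hamp2* was again the third, at 56.7 per kilobase. In both IMQ groups *Lcn2* was the third, after the ferritins, at 40.7 in WT IMQ and 14.5 in IMQ labelled *Lcn2*-/-, and the hepcidin genes were the last.

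A wider list of 78 genes of iron biology gives the setting, and 73 of these apart from *Hamp2* were tested. *Mc4r*, *Lrp2*, *Tmprss6* and *Ftmt* had too few counts. In WT mice 29 of 73 (39.7%) were called after IMQ, 15 higher and 14 lower, against 14.2% and 14.3% of all tested genes, with a median log2 fold change of 0.00 against -0.02 over all tested genes. Of the same 73, 32 (43.8%) were called in mice labelled *Lcn2*-/-, 23 higher and 9 lower, against 14.1% and 11.2% of all tested genes, with a median of 0.12 against -0.05 over all tested genes. The count of 32 was 16 without IMQ mouse 3 of that label and 20 without its IMQ mouse 2 or its control mouse 3. Called with the same direction in both were 15 genes, 51.7% of the former and 46.9% of the latter, and none was called in opposite directions. The like share over all tested genes was not taken, so this count is not read as a trait of iron genes. The counts of 29, 32 and 15 include *Hamp*, and that of 32 also includes *Ltf*, with the limits given above.

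Of 14 tested genes of export and hepcidin control, 1 rose and 7 fell in WT mice (57.1% called, against 28.5% of all tested genes), and 3 rose and 4 fell in mice labelled *Lcn2*-/- (7 of 14, against 25.3%). *Hamp* is counted among those that fell in each, with the limits given above. *Bmp2*, a ligand that drives hepcidin in the liver, fell in WT mice (log2 -1.28, adjusted p = 0.000770), from 10.95 to 13.9 CPM in control to 4.65 to 5.21 CPM after IMQ. The hemojuvelin gene *Hfe2* fell (log2 -1.52, adjusted p = 0.00349), from 41.2 to 54.4 CPM in control to 13.4 to 19.6 CPM after IMQ, as did the inhibitory *Smad6* (-1.40) and *Neo1*, whose product binds hemojuvelin (-1.07). *Hfe2* is also a gene of skeletal muscle, and the part of the lower muscle genes of WT IMQ mice, given above, in its values was not tested. Among mice labelled *Lcn2*-/- *Neo1* fell (-1.23), while *Cp*, the ferroxidase ceruloplasmin, rose by 1.37 and *Hfe*, the haemochromatosis gene, by 1.27. *Id1*, a common readout of BMP signalling, rose in both, by 0.37 in WT mice and by 1.01 in mice labelled *Lcn2*-/-.

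Of 14 tested genes of iron entry, 4 rose and 2 fell in WT mice (42.9% called, against 28.5% of all tested genes), and 1 rose and 3 fell in mice labelled *Lcn2*-/- (28.6%, against 25.3%). *Cybrd1*, a ferric reductase, fell in both, with log2 fold changes of -2.65 in WT mice and -2.06 in mice labelled *Lcn2*-/-. *Steap1* and *Slc39a14* rose in WT mice by 2.20 and 1.21, and *Steap3*, the endosomal ferric reductase, fell (-1.33). *Slc11a1*, the phagosomal metal transporter of macrophages, rose by 2.46 in mice labelled *Lcn2*-/-, and *Slc39a8*, a metal ion importer, fell (-2.32). For *Slc39a14* the difference between the responses was -1.27 (adjusted p = 0.0907) and for *Steap3* 1.59 (adjusted p = 0.0549).

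Of 21 tested haem genes, 5 rose and 1 fell in WT mice (28.6% called, close to the 28.5% of all tested genes), and 11 rose and 1 fell in mice labelled *Lcn2*-/- (57.1%, against 25.3%). *Hpx*, which encodes the haem scavenger hemopexin, had the largest rise among the 73 genes in mice labelled *Lcn2*-/-, from 0.526 to 1.01 CPM in control to 18.3 to 31.2 CPM after IMQ (log2 5.03, SE 0.57, adjusted p = 0.000181). Its WT level went from 0.532 to 1.02 CPM to 2.62 to 12.1 CPM (3.03, SE 0.54, adjusted p = 0.00197). *Hmox1*, the inducible haem oxygenase, rose by 1.17 in WT mice and by 2.23 in mice labelled *Lcn2*-/-.

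Genes of haem and haemoglobin clearance were among those called in mice labelled *Lcn2*-/-, where *Hp* (haptoglobin) rose by 1.93, *Cd163* (its scavenger receptor on macrophages) by 1.36 and *Lrp1* (the hemopexin receptor) by 1.01. *Alas2*, the erythroid enzyme of haem synthesis, rose by 2.22 and 2.10, *Flvcr2* by 1.79 and 1.54, and the values for *Alad*, which fell, were -1.78 and -1.08, in WT mice and mice labelled *Lcn2*-/- in that order. The 7 erythroid genes, of which *Alas2* is one, summed to 26.5 to 142 CPM in WT control, 182 to 604 in WT IMQ, 105 to 238 in control labelled *Lcn2*-/- and 349 to 1099 in IMQ labelled *Lcn2*-/-, and 5 of 7 rose in each. Their part in the *Alas2* values, and that of macrophages in the *Cd163* values, was not tested.

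The remaining groups are small, and their counts stand beside 28.5% of all tested genes called in WT mice and 25.3% in mice labelled *Lcn2*-/-. Of 5 regulators, *Fbxl5* and *Nfe2l2* rose and *Aco1*, one of the iron regulatory proteins, fell in WT mice, and *Fbxl5*, *Nfe2l2* and *Epas1* rose in mice labelled *Lcn2*-/-. Of 5 tested storage genes edgeR called 0 in WT mice, with 0 at an unadjusted p under 0.05 and 0 by DESeq2, and 3 rose in mice labelled *Lcn2*-/-, *Fth1*, *Ftl1* and *Ncoa4*, the receptor that takes ferritin to lysosomes. Among mitochondrial genes, *Slc25a37* and *Slc25a28*, the mitochondrial iron importers, rose and *Cisd1* and *Glrx5* fell in WT mice, while in mice labelled *Lcn2*-/- *Cisd1* fell (-0.90) and the other 3 were not called.

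**Figure D3:**
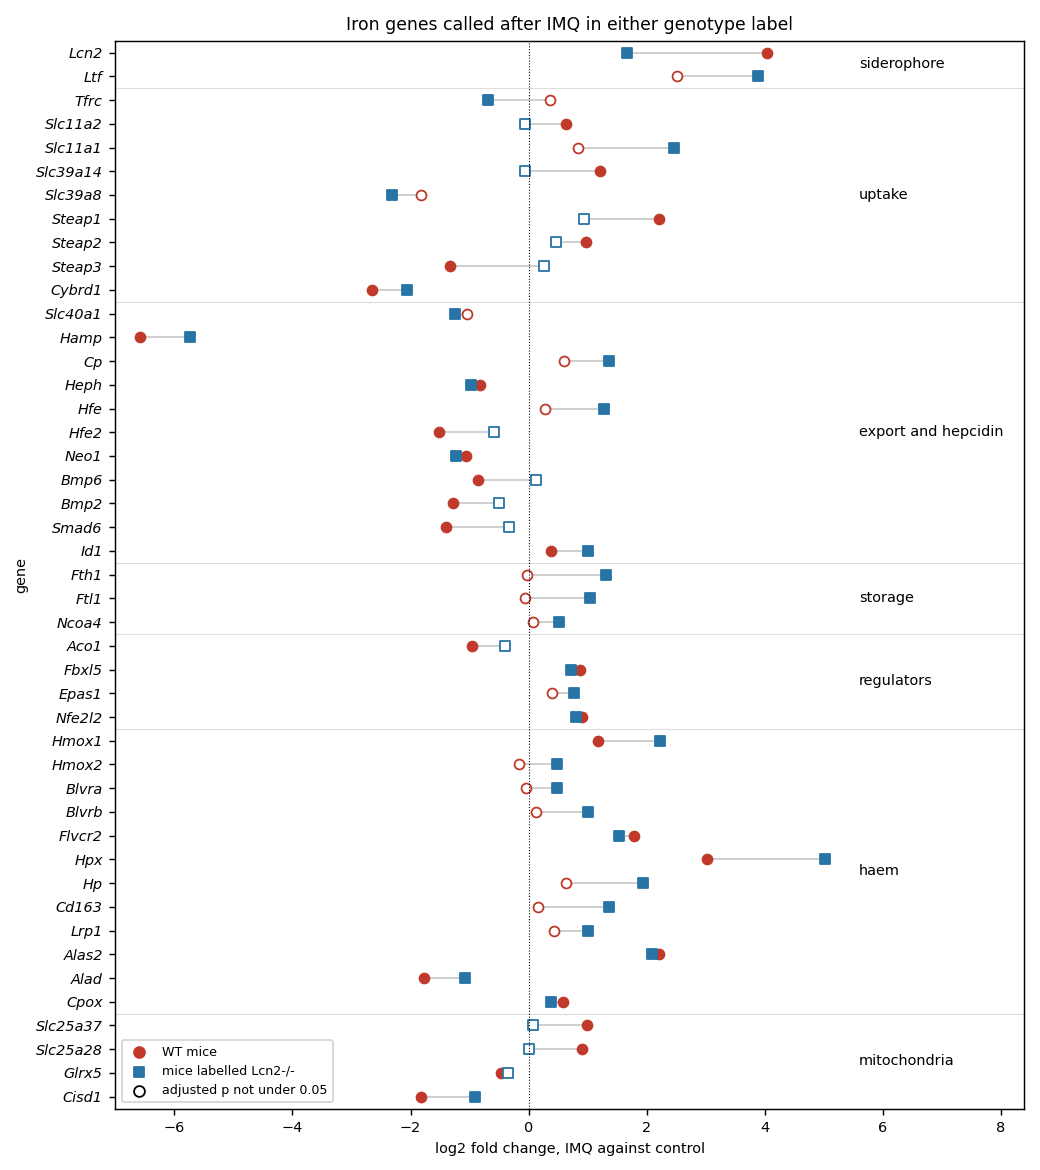
Log2 fold change after IMQ of iron genes called in WT mice (circles) or in mice labelled *Lcn2*-/- (squares), grouped by role. Filled symbols have an adjusted p under 0.05 in that genotype label. *Hpx* lies furthest right in mice labelled *Lcn2*-/-, at 5.03, and *Fth1* is at 1.32 there against -0.03 in WT mice.

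Directly between the IMQ groups, 4 of 73 genes of the wider list were called (5.48%), close to the 4.78% of all tested genes. *Tfrc* and *Slc25a28* were lower in IMQ mice labelled *Lcn2*-/- (-0.85 and -0.62), and *Bmp6* and *Hpx* were higher (1.08 and 1.91, adjusted p = 0.0429 and 0.0464). *Bmp6*, the iron-responsive ligand for hepcidin, stood at 7.18 to 9.66 CPM in WT control and 3.45 to 6.32 in WT IMQ. It stood at 6.83 to 10.8 CPM in control and 8.24 to 10.7 in IMQ labelled *Lcn2*-/-, groups that overlapped. The count of 4 rested on the mice in the fit: it was 16 without WT IMQ mouse 2 and 0 without any other mouse of the IMQ groups. Between the control groups edgeR called 0 of 73, with 5 at an unadjusted p under 0.05, and DESeq2 called *Id1* (-0.70, adjusted p = 0.000364), for which edgeR gave an adjusted p of 0.110.

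**Figure D4:**
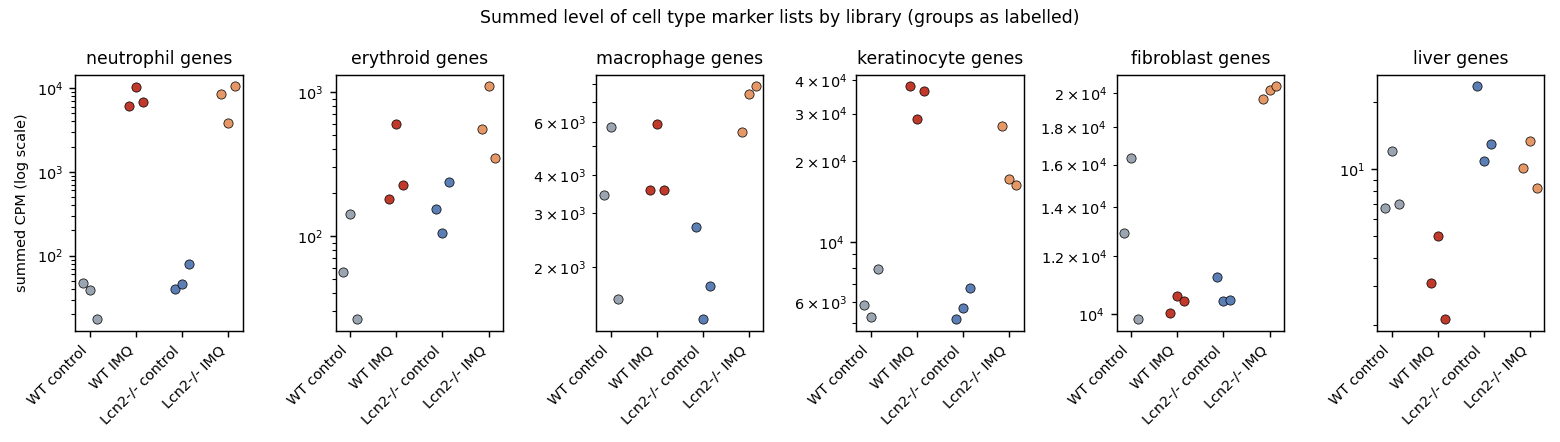
Summed CPM of 6 lists of cell type genes in each library, on log scales that differ between panels. Points are mice. The neutrophil sums, mostly *S100a8* and *S100a9* after IMQ, are far higher in all 6 IMQ libraries (3810 to 10505 CPM) than in controls (17.5 to 80.2 CPM). Without *S100a8* and *S100a9* they are 146 to 504 CPM after IMQ and 9.20 to 32.7 CPM in controls. Of 13 neutrophil genes 11 were tested. In WT mice 9 were called higher and 1 lower, against 14.2% and 14.3% of all tested genes. In mice labelled *Lcn2*-/- 10 were called higher and 0 lower, against 14.1% and 11.2%. Some, such as *Ly6g* and *Cd177* (at most 5 and 12 counts in a control library), entered the test through IMQ libraries, where they are high, which limits what these calls can show. Macrophage and fibroblast genes are high in IMQ labelled *Lcn2*-/-.

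Across the 12 libraries, the pattern nearest to that of *Lcn2* was that of *Slc5a1*, a sodium-glucose transporter, followed by *Serpinb2*, *Slc23a4*, *Ehf* and *Socs3*. The measure was the root mean square difference of mean-centred log2 CPM among 15982 genes with a mean of at least 1 CPM, and it was 0.44 for *Slc5a1* and 0.53 for *Socs3*. *Slc5a1* ran from 7.12 to 14.7 CPM in the 6 control libraries and from 44.7 to 134 CPM in the 6 IMQ libraries.

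The patterns nearest to *Hamp2* were those of *Mrgprb11-ps*, *Serpinb6e*, *Scd3*, *Krt77* and *F830045P16Rik*, at 0.86 to 1.34 by the same measure. These too were counted in every control library and almost gone after IMQ. *Krt77*, a keratin of the epidermis, ran from 913 to 1681 CPM in controls and from 0.872 to 7.66 CPM after IMQ, and *Scd3*, a fatty acid desaturase, from 334 to 681 and from 2.66 to 16.4 CPM. These genes are listed for their likeness to the chosen gene, with no test.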

How the data were processed

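A single table of whole-number counts was deposited by the authors, giving reads on each of 56923 Ensembl genes in 12 libraries of paired reads, which sum to different totals. The submitters' processing notes name HISAT and the build mm8, and the counting tool is not given in the sources used here. The file holds no coordinates, and names and positions came from GENCODE M21 (GRCm38), which holds 91.5% of the identifiers; those without a name hold 0.567% of the counts. Promoters came from the RefSeq table of GRCm38.p6, in which 8 of the 10 genes have an entry.

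Counts were scaled by TMM and tested with edgeR 4.0.16 (limma 3.58.1, R 4.3.3), with robust quasi-likelihood dispersions and 1 mean per group for all 12 libraries, over the 18529 genes that passed filterByExpr (minimum count 10). P-values were adjusted by Benjamini-Hochberg over all of these, and a gene was called at an adjusted p under 0.05. The study's methods name DESeq2, which was run as an alternative (version 1.42.0). Named from the wider list were called genes whose groups do not overlap, at most 15 per comparison by the size of the log2 fold change, and, chosen after their values were seen, the few others that complete a small group. A result for 1 gene of the wider list is not reported here. The genes and lists were chosen with earlier results of these data known. The exact and Wilson intervals and the floors of 3 counts cover counting error only. The intervals of log2 fold changes come from the edgeR fit over all 12 libraries and include the spread between mice. On simulated counts for 18529 genes in the WT comparison, with 200 genes changed 4-fold, edgeR recovered 71.5% with 5.92% of its calls false, and DESeq2 recovered 80% with 20.4% false. In the data 28.5% of all tested genes were called in that comparison, far more than were changed in the simulation. The false share depends on how many genes change, so these shares do not carry over to the data. The other comparisons were not simulated. No pair of libraries of the same group was alike within sampling noise (lowest chi-square per degree of freedom 11.8). Pairs from different groups were not compared. Ratios were taken from counts with scipy 1.17.1, and figures were drawn with matplotlib 3.10.9.

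The alternatives were RLE size factors, DESeq2, no filter, at least 10 counts in every library, the compared groups only, the replicate number as a block, a fold change above 2 with an unadjusted p under 0.05, and each mouse left out.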

Additional observations from a re-analysis of the deposited data

Results flagged for a closer look

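*Slc25a28*, a mitochondrial iron importer, was the only iron gene whose responses to IMQ differed between the genotype labels by a test of the difference itself (log2 -0.89, SE 0.20, adjusted p = 0.0436 from edgeR). It ran from 29.1 to 32.5 CPM in WT control and from 45.5 to 68.0 CPM in WT IMQ, and from 35.1 to 40.4 CPM in control and 36.0 to 39.3 CPM in IMQ labelled *Lcn2*-/-, so that 3 of 3 WT IMQ mice were above all other mice, and the groups labelled *Lcn2*-/- overlapped each other and lay above WT control. With the replicate block, and in 9 of 12 fits with a mouse left out, no iron gene was called for this difference.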

How the results depend on the processing

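RLE size factors gave the same counts of called iron genes in each of the 5 comparisons and moved the median log2 fold change of all genes by at most 0.0163. DESeq2 called 12 iron genes between the IMQ groups, 1 between the control groups and 11 for the difference between the responses, where edgeR called 4, 0 and 1. Without the filter on low counts, 21 in place of 32 were called after IMQ in mice labelled *Lcn2*-/-, and 2 for the difference between the responses. With at least 10 counts in every library, which drops *Hamp*, *Hamp2* and *Ltf*, the latter count was 3. With the compared groups only, 13 were called between the IMQ groups. By fold change above 2 and unadjusted p, 1 was called between the control groups and 10 for the difference between the responses. With the replicate number as a block, 1 was called between the IMQ groups and 0 for the difference between the responses. Same-numbered mice are different animals. Their deviations correlated at 0.0548 to 0.199 in the WT comparison and at -0.0921 to 0.0199 among mice labelled *Lcn2*-/-. Between the IMQ groups the values were 0.0284 to 0.0875, and between the control groups -0.555 to -0.0245. Whether same-numbered mice share more than a number was not tested. Among the 10 genes the block put *Ltf* past the threshold in WT mice (adjusted p = 0.0332) and *Slc40a1* in mice labelled *Lcn2*-/- (0.0541) and *Tfrc* between the IMQ groups (0.0578) short of it, and changed no other call. The cause of these shifts was not tested.

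With 1 mouse left out, the counts ran from 21 to 33 for WT IMQ against control, 16 to 29 for mice labelled *Lcn2*-/- (16 without IMQ mouse 3, 20 without IMQ mouse 2 or control mouse 3), 0 to 16 between the IMQ groups, 0 to 15 for the difference between the responses (15 without WT IMQ mouse 2, 6 without WT control mouse 3, 5 without control mouse 1 labelled *Lcn2*-/-) and stayed at 0 between the control groups. Signs turned only for changes that were not called: in WT mice *Slc22a17* ran from -0.24 to 0.35, *Fth1* from -0.33 to 0.23 and *Ftl1* from -0.27 to 0.16; among mice labelled *Lcn2*-/- *Slc11a2* ran from -0.13 to 0.072; between control groups *Hamp* ran from -0.93 to 0.26 and *Ltf* from -1.86 to 1.15; between IMQ groups *Hamp* ran from -3.38 to 3.80 and *Hamp2* from -1.19 to 3.38; and for the difference between the responses *Hamp* ran from -2.94 to 4.24, *Hamp2* from -0.67 to 3.90 and *Slc40a1* from -0.50 to 0.10. The last values of the hepcidin genes rest on at most 4 counts in an IMQ library, a depth at which no difference between those groups could be shown.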
